A study of Homo sapiens with 7 samples.

Results

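The p53 pathway genes examined here are 30 genes chosen by name, mostly transcriptional targets of p53 together with its regulators, and they were 30 of 60234 genes in the deposited expression table. They were measured in cardiomyocytes grown from WTC-11, an established human induced pluripotent stem cell line. RNA selected for poly-A tails was sequenced after antisense oligonucleotides (ASO), which bind a chosen transcript by base pairing, had been given passively at 2 uM for 96 h to cells matured for 35 days. The labels put 3 libraries in the group given a scrambled ASO and 4 in the group given an ASO against MYH7B, and both groups share the line, the maturation, the dose and the exposure time. No label says that the libraries of a group came from separate differentiations, so p-values measure the spread between these libraries, which may be technical. The sequence and chemistry of the ASOs, and whether several oligonucleotides were used per target, are not given in the sources used here.

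Values are TPM, which scale each gene by its length and each library to 1000000, so levels can be compared between genes but sequencing depth is unknown. For MYH7B ASO replicate 1 the deposited values were out of gene order. After reordering it had a median correlation of 0.955 with the others, which correlated with each other at 0.959 to 0.979 across genes. The main comparison therefore used the 3 scrambled ASO libraries and MYH7B ASO replicates 2 to 4, and the values of replicate 1 are given beside it. Between 14823 and 16207 genes per library reached 1 TPM, and the mitochondrial share of TPM was 27.4% to 33.6% in 6 libraries and 17.2% in MYH7B ASO replicate 1. All 8 cardiomyocyte markers were above 1 TPM in every library. The target MYH7B had 23.0, 36.5 and 25.1 TPM in scrambled ASO replicates 1 to 3 and 1.29, 9.30, 5.65 and 6.31 TPM in MYH7B ASO replicates 1 to 4. Its log2 fold change over the 6 libraries was -1.85 (limma, adjusted p = 0.0109).

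The transcription factor p53 is held at low levels in unstressed cells by MDM2, an E3 ubiquitin ligase that it induces itself. DNA damage, nucleolar stress and other signals release it from MDM2, and it then binds response elements built of paired decamers and raises genes for cell cycle arrest, DNA repair, metabolism, apoptosis and its own shutdown. Cardiomyocytes carry this pathway in a largely non-dividing cell, where p53 is known mainly for its part in responses to oxidative and DNA-damaging stress.

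The sequence that ties the members together is the p53 response element, so RefSeq promoter windows on GRCh38.p14, 250 bases before to 50 after an annotated start, were searched for the canonical p53 half-site decamer, which is its own reverse complement and so covers both strands. The search covered 37 such windows for 25 of the 30 genes. The remaining members were not searched, so nothing is said here about whether they have annotated promoters or half-sites. A half-site was present in 6 of the 37 windows, or 16.2%, against 6.63% of all 35116 windows. A full element of consecutive half-sites with a spacer of at most 13 bases was present in 1 member window and in 10 of all windows, or 0.0285%. The matches are shown with flanking bases, 5′ to 3′ on the gene's own strand, with the half-sites in capitals. The full element lies in a DDB2 window, and its printed stretch is chr11:47214975-47215004 on the plus strand. The element starts at base 6 of the transcript and has a spacer of 1 base.
DDB2: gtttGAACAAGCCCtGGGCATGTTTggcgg
FDXR: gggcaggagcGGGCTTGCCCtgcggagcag
AEN: agtcggagccGGGCTTGCCCgggcatgtgg
FAS: cggaactcctGGACAAGCCCtgacaagcca
SESN1: attgtcgtctGGACAAGTCTccacaagtca
PLK2: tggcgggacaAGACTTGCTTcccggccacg
The printed stretches with a single half-site lie at chr17:74872986-74873015 (minus strand, FDXR), chr15:88621296-88621325 (plus strand, AEN), chr10:88991299-88991328 (plus strand, FAS), chr6:109009018-109009047 (minus strand, SESN1) and chr5:58460199-58460228 (minus strand, PLK2). The half-sites of FDXR and AEN are the same 10 letters. A match is a description of these letters only, and the windows do not reach the distal and intronic elements of other targets.

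In the scrambled ASO cells all 30 genes were expressed at a mean of more than 1 TPM. CCNG1, which encodes cyclin G1, stood first at 238 ± 17.9 TPM (SD, n = 3), above the next gene without overlap. CDKN1A, the gene of the cyclin-dependent kinase inhibitor p21, followed at 86.7 ± 30.3 TPM, and BAX, a pore-forming protein of the mitochondrial death pathway, at 54.5 ± 18.3 TPM. Another 12 genes had means of 5 to 20 TPM and 6 had means under 5 TPM, among them GDF15, FAS and PLK3. Below CCNG1, every gene overlapped its neighbour in this order.

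The comparison of the ASOs asked whether the pathway moved as cells lost MYH7B RNA, and 29 of the 30 genes did not pass the test. RRM2B, which encodes the p53-inducible small subunit of ribonucleotide reductase, was lower with the MYH7B ASO. It was the 1 member of 30 called by limma at an adjusted p under 0.05 over all genes, and no member was called higher. Of all 15988 genes tested, 1.66% were called, 29 higher and 236 lower, and 1.48% were called lower. With quantile normalization the calls were 55 higher and 202 lower. The median log2 fold change of the 30 members was 0.10, against -0.044 over all genes tested, with 18 members above 0 and 12 below. The member median was -0.038 without scrambled ASO replicate 2. An unadjusted p under 0.05 was reached by 8 members, against 15.2% of all genes, with 3 of them higher (4.67% of all genes) and 5 lower (10.6%).

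In the authors' deposited table, whose fold changes are shrunken and whose libraries are not stated, 6 of the 30 members had an adjusted p-value under 0.05, against 8.71% of all genes with one. CDKN1A, BTG2 and GADD45A were higher there, against 3.02% of all genes, and RRM2B, POLH and ZMAT3 lower, against 5.69%. Groups of the 6 libraries did not overlap for 5 members. BTG2 and TP53I3 were higher in every MYH7B ASO library, against 7.11% of all genes tested in that direction, and RRM2B, POLH and ZMAT3 lower, against 14.1%. With replicate 1 counted, BTG2 and TP53I3 (4.7% of all genes) and RRM2B and ZMAT3 (10.2%) still did not overlap.

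**Figure D1:**
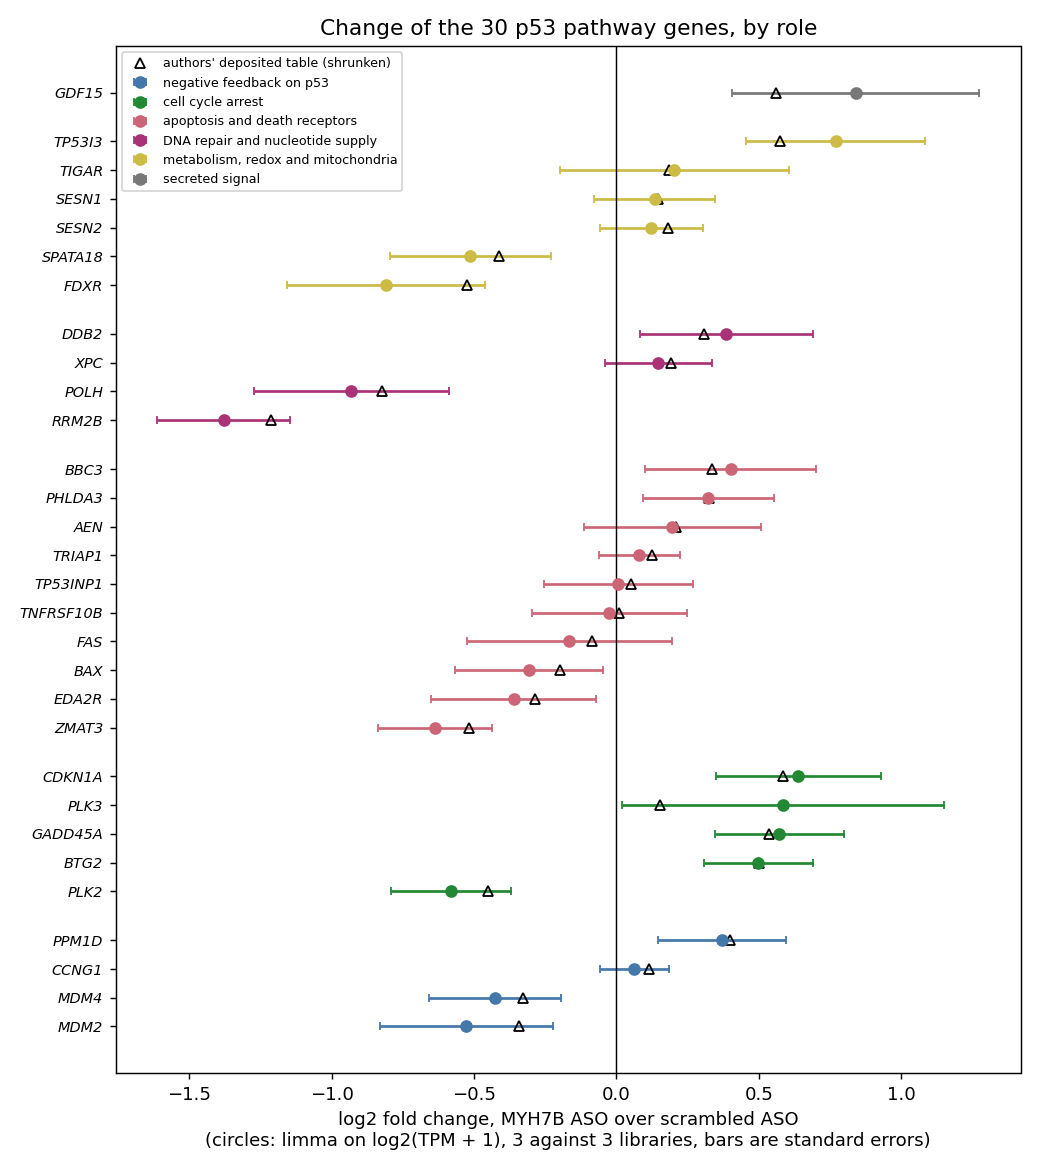
Log2 fold changes of the 30 p53 pathway genes, MYH7B ASO over scrambled ASO, grouped by role. Circles are limma estimates from 3 against 3 libraries with standard errors, and triangles are the shrunken values of the authors' deposited table. RRM2B lies farthest from 0 at -1.38, and 4 of the 5 arrest genes lie above 0.

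Among the genes for DNA repair and nucleotide supply, 1 of 4 was called, and it fell. RRM2B (ENSG00000048392.12, chromosome 8, positions 102204502 to 102239118 in GENCODE 29 on GRCh38) supplies deoxynucleotides for DNA repair and mitochondrial DNA in cells that are not dividing. It had 11.7, 8.49 and 14.8 TPM with the scrambled ASO and 4.16, 4.15 and 3.09 TPM in MYH7B ASO replicates 2 to 4. Replicate 1 had 3.21 TPM, so each of the 4 MYH7B ASO libraries lay under the whole scrambled ASO range. On average RRM2B fell to 0.325 of its control level, with 11.7 ± 3.16 and 3.80 ± 0.61 TPM in the groups (SD, n = 3 each). The log2 fold change was -1.38 (standard error 0.23; limma, adjusted p = 0.0298), and -1.42 with replicate 1 included (limma, adjusted p = 0.0230). Its value in the authors' deposited table was -1.21 (adjusted p-value of 5.9e-07). Leaving out scrambled ASO replicate 1, scrambled ASO replicate 3 or any of MYH7B ASO replicates 2 to 4 ended the limma call (adjusted p from 0.0821 to 0.132). RRM1, the large subunit of the same enzyme, had 24.8 ± 2.28 and 19.2 ± 1.43 TPM (SD, n = 3 each; limma, adjusted p = 0.314). RRM2, the small subunit of dividing cells, had 15.5 ± 7.01 and 15.9 ± 6.17 TPM (SD, n = 3 each; limma, adjusted p = 0.940).

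POLH encodes DNA polymerase eta, which copies past ultraviolet lesions (chromosome 6, 43576150 to 43615660). It had 12.1, 3.97 and 6.21 TPM with the scrambled ASO, and 3.09, 3.51 and 2.69 TPM in MYH7B ASO replicates 2 to 4. The groups did not overlap over the 6 libraries, but replicate 1, at 4.22 TPM, lay above scrambled ASO replicate 2. The estimate for POLH was -0.93 (standard error 0.34; limma, adjusted p = 0.244). POLH passed in the authors' deposited table at -0.82 (adjusted p-value of 0.00897). Without scrambled ASO replicate 1 the limma estimate was -0.55. XPC and DDB2 recognise damaged bases in nucleotide excision repair, and their log2 fold changes were 0.15 and 0.39 (limma, adjusted p = 0.757 and 0.596). DDB2, the gene with the full response element printed above, had 12.1, 16.7 and 29.7 TPM with the scrambled ASO and 26.7, 27.5 and 19.1 TPM in MYH7B ASO replicates 2 to 4. Its groups overlapped widely.

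The cell cycle arrest genes had a median log2 fold change of 0.57, with 4 of 5 above 0 and none called by limma. CDKN1A (chromosome 6, 36676460 to 36687339) had 80.02, 60.4 and 119.8 TPM in the scrambled ASO libraries. In MYH7B ASO replicates 2 to 4 it had 115, 186 and 103 TPM, and in replicate 1 it had 306 TPM, the highest of all. Scrambled ASO replicate 3 lay above replicates 2 and 4 of the other group, so the groups overlapped. The means were 86.7 ± 30.3 and 135 ± 44.97 TPM (SD, n = 3 each), which gave a log2 fold change of 0.64 (standard error 0.29; limma, adjusted p = 0.345). CDKN1A passed in the authors' deposited table at 0.58 (adjusted p-value of 0.0338). The limma estimate was 0.38 without MYH7B ASO replicate 3 and 0.41 without scrambled ASO replicate 2. Exons of CDKN1A overlap a noncoding gene on the opposite strand, DINOL, and the strand setting of the counting is not given in the sources used here.

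BTG2, an antiproliferative adaptor of mRNA deadenylation (chromosome 1, 203305491 to 203309602), had 39.9, 29.6 and 47.5 TPM with the scrambled ASO. It had 57.2, 58.5 and 48.5 TPM in MYH7B ASO replicates 2 to 4 and 80.9 TPM in replicate 1, above every scrambled ASO library. The difference on the log2 scale was 0.50 (standard error 0.19; limma, adjusted p = 0.266). It passed in the authors' deposited table at 0.50 (adjusted p-value of 0.0237). Without scrambled ASO replicate 2 the limma estimate for BTG2 was 0.32. GADD45A, a stress sensor that binds PCNA and signals to stress kinases (chromosome 1, 67685061 to 67688338), had 27.6, 36.5 and 51.7 TPM with the scrambled ASO. It had 62.1, 58.2 and 48.6 TPM in MYH7B ASO replicates 2 to 4 and 83.03 TPM in replicate 1, so 1 library of each group crossed. The difference on the log2 scale was 0.57 (standard error 0.23; limma, adjusted p = 0.282). It passed in the authors' deposited table at 0.54 (adjusted p-value of 0.0333). Without scrambled ASO replicate 1 the limma estimate for GADD45A was 0.36.

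The polo-like kinases PLK2 and PLK3 did not share a direction. PLK2 averaged 43.2 ± 8.88 TPM in the control libraries and 28.6 ± 6.51 TPM in MYH7B ASO replicates 2 to 4 (SD, n = 3 each), but had 81.9 TPM in replicate 1. Its log2 fold change was -0.58 (limma, adjusted p = 0.241) and -0.20 with replicate 1 included. PLK3 was low, at 2.496 ± 2.33 and 3.32 ± 0.91 TPM (SD, n = 3 each), with 0.079 TPM in scrambled ASO replicate 2.

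**Figure D2:**
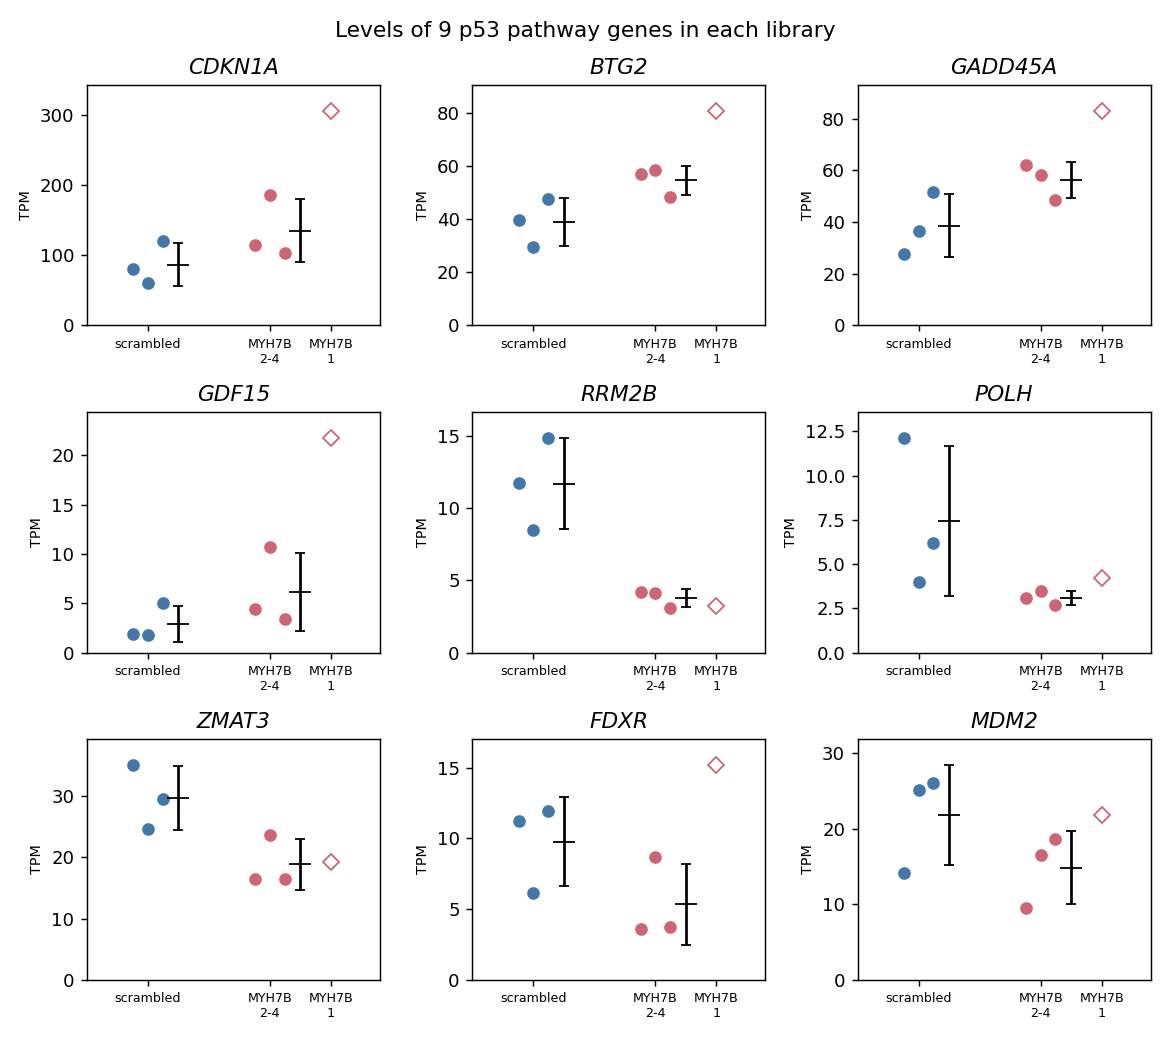
TPM of 9 p53 pathway genes in each library on linear axes from 0. Filled points are the 3 scrambled ASO libraries and MYH7B ASO replicates 2 to 4, bars are their mean and SD, and open diamonds are MYH7B ASO replicate 1. RRM2B is the panel with the widest gap between groups, and CDKN1A, BTG2, GADD45A, GDF15 and FDXR have their highest value in replicate 1.

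Of the 4 feedback genes that limit p53, none was called by limma or in the authors' deposited table. MDM2 (chromosome 12) had 14.2, 25.2 and 26.1 TPM with the scrambled ASO and 9.46, 16.5 and 18.7 TPM in MYH7B ASO replicates 2 to 4, with 21.8 TPM in replicate 1. The groups overlapped, and the log2 fold change of -0.53 had a standard error of 0.30 (limma, adjusted p = 0.462). Without MYH7B ASO replicate 2 the MDM2 estimate was -0.25, and without scrambled ASO replicate 1 it was -0.80. MDM4, its relative that masks the p53 activation domain, had a log2 fold change of -0.43 (limma, adjusted p = 0.438), from 21.2 ± 5.21 to 15.4 ± 3.38 TPM (SD, n = 3 each). PPM1D, a phosphatase that reverses damage signalling, had 0.37 and CCNG1 0.063. Thus CDKN1A and MDM2, both classic p53 targets, had estimates of opposite sign, neither of which passed in limma.

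The 10 genes of apoptosis and death receptors had a median log2 fold change of -0.0093, with 5 above 0 and 5 below. ZMAT3, an RNA-binding protein (chromosome 3, 179017223 to 179072279), had 35.1, 24.6 and 29.5 TPM with the scrambled ASO and 16.4, 23.6 and 16.5 TPM in MYH7B ASO replicates 2 to 4. Replicate 1 had 19.2 TPM, so the groups did not overlap with either set of libraries. The difference on the log2 scale was -0.64 (standard error 0.20; limma, adjusted p = 0.182). It passed in the authors' deposited table at -0.52 (adjusted p-value of 0.0353). The other 9 genes were called by neither. BBC3 (PUMA) and PHLDA3, an inhibitor of AKT signalling, had log2 fold changes of 0.40 and 0.32. BAX and EDA2R, a receptor of the tumour necrosis factor family, had -0.31 and -0.36. The death receptors FAS and TNFRSF10B had -0.17 and -0.025, and AEN, TRIAP1 and TP53INP1 lay between 0.0061 and 0.20.

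BAX was set apart in MYH7B ASO replicate 1. It had 46.2, 41.7 and 75.5 TPM with the scrambled ASO, 36.4, 56.6 and 36.8 TPM in MYH7B ASO replicates 2 to 4 and 165 TPM in replicate 1. Its estimate was -0.31 without replicate 1 and 0.18 with it, and neither was called.

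Among the 6 genes of metabolism, redox and mitochondria none was called, and the estimates went both ways. TP53I3, a quinone oxidoreductase-like protein (PIG3), had 3.66, 9.22 and 7.11 TPM with the scrambled ASO. It had 10.2, 15.4 and 9.44 TPM in MYH7B ASO replicates 2 to 4 and 34.4 TPM in replicate 1, and the groups did not overlap. The estimate for TP53I3 was 0.77 (standard error 0.31; limma, adjusted p = 0.293), and it did not pass in the authors' deposited table either (adjusted p-value of 0.122). FDXR, the reductase that passes electrons to mitochondrial ferredoxin, had 11.2, 6.17 and 11.9 TPM with the scrambled ASO and 3.57, 8.66 and 3.76 TPM in MYH7B ASO replicates 2 to 4. Replicate 1 of the MYH7B ASO, at 15.2 TPM, was its highest library. The log2 fold change of FDXR was -0.81 (standard error 0.35; limma, adjusted p = 0.316) and -0.45 with replicate 1 included. SPATA18, which acts in mitochondrial quality control, had -0.51. SESN1 and SESN2, which restrain mTORC1, and TIGAR, which lowers glycolytic flux, lay between 0.12 and 0.20.

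GDF15, a secreted stress hormone of the TGF-beta superfamily, was low and varied widely between libraries of each group. It had 1.94, 1.76 and 5.05 TPM with the scrambled ASO and 4.42, 10.7 and 3.42 TPM in MYH7B ASO replicates 2 to 4, with 21.8 TPM in replicate 1. Scrambled ASO replicate 3 lay above 2 of the other group's libraries. The log2 fold change was 0.84 (standard error 0.43; limma, adjusted p = 0.410). The estimate for GDF15 was 0.42 without MYH7B ASO replicate 3 and 1.20 without scrambled ASO replicate 3.

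The members varied by library within each group as well as between groups. Scrambled ASO replicate 3 was the highest of its group for 22 of the 30 genes, or 73.3%, against 45.5% of all genes tested, and replicate 2 was the lowest for 19, or 63.3%, against 35.4%. MYH7B ASO replicate 1 was the highest of all 7 libraries for 18 members, or 60%, against 24.1% of all genes tested. It was highest for all 5 arrest genes, 7 of the 10 apoptosis genes and none of the 4 feedback genes. The 30 genes summed to 758, 681 and 923 TPM in scrambled ASO replicates 1 to 3, to 826, 941 and 750 TPM in MYH7B ASO replicates 2 to 4 and to 1365 TPM in replicate 1. With replicate 1 included the median log2 fold change of the members was 0.20 with 20 of 30 above 0, and RRM2B was again the 1 member called by limma. In that fit 1.07% of all genes were called, 0.107% higher and 0.967% lower.

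**Figure D3:**
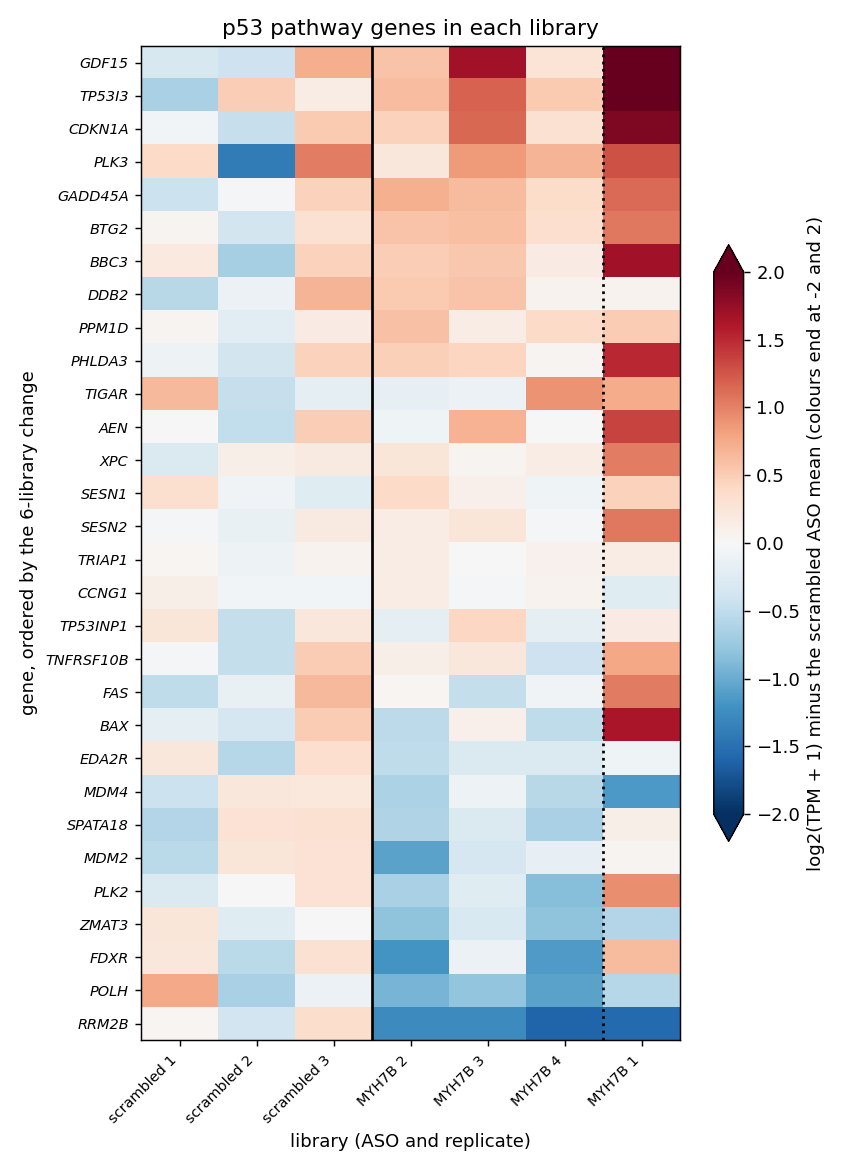
Each p53 pathway gene in each library, as log2(TPM + 1) minus the scrambled ASO mean, with genes ordered by the 6-library change. MYH7B ASO replicate 1, right of the dotted line, is the highest library for 18 of 30 genes, and scrambled ASO replicate 3 is the highest of its group for 22.

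Markers of other cell types differed between the same libraries. The 8 fibroblast markers summed to 2881, 3025 and 5173 TPM in scrambled ASO replicates 1 to 3, to 1721, 2071 and 1344 TPM in MYH7B ASO replicates 2 to 4 and to 4069 TPM in replicate 1. COL1A2 fell from 765 ± 272 to 286 ± 56.0 TPM and LUM from 36.3 ± 28.2 to 5.80 ± 1.18 TPM (SD, n = 3 each; limma, adjusted p = 0.0343 and 0.0489). In replicate 1 COL1A2 had 629 TPM and LUM 43.8 TPM, and neither was called with that library included (limma, adjusted p = 0.207 and 0.391). In the authors' deposited table COL1A1 and COL3A1 were also lower (-0.88 and -0.80), while PDGFRA and TCF21 were higher (0.61 and 0.72). The 4 smooth muscle markers summed to 455 to 717 TPM with the scrambled ASO, 309 to 375 TPM in MYH7B ASO replicates 2 to 4 and 647 TPM in replicate 1. MYH11 and ACTG2 fell by 2.41 and 2.02 on the log2 scale (limma, adjusted p = 0.00599 and 0.0173), and TAGLN was lower in the authors' deposited table (-1.04). CNN1 went the other way there, at 0.29 (adjusted p-value of 0.108). In limma 3 of the 4 smooth muscle markers lay below 0 and 1 above.

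The 8 cardiomyocyte markers summed to 8512 to 9866 TPM with the scrambled ASO and 7812 to 9944 TPM with the MYH7B ASO, and RYR2 was lower in the authors' deposited table (-0.84). Their median log2 fold change was -0.25, with 3 above 0 and 5 below, and none was called by limma. Over the 6 libraries 4 of the 8 were lower without overlap, against 14.1% of all genes tested, and 1 was higher, against 7.11%. The 5 epithelial markers, most of their sum keratins that early cardiomyocytes also express, summed to 1918 to 2251 TPM and 2212 to 3189 TPM. In limma 4 of the 5 lay above 0 and 1 below, and none was called. Over the 6 libraries 2 were higher without overlap, against 7.11% of all genes tested, and 1 was lower, against 14.1%. CDH1 was lower in the authors' deposited table (-0.67). Of the 4 endothelial markers 1 to 3 were under 1 TPM in each library, as were at least 3 of the 4 pluripotency markers and at least 2 of the 3 immune markers. No cardiomyocyte, fibroblast, smooth muscle or epithelial marker was at 0 in any library. In bulk RNA, fewer cells of a type and less RNA per cell cannot be told apart. The part of cell composition in the changes of the p53 pathway genes was not tested.

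The rest of the pathway was taken from lists of genes that are not members. None of the 17 tested upstream regulators of p53, which include the damage kinases ATM, ATR, CHEK1 and CHEK2, was called by limma or in the authors' deposited table, and 1 had an unadjusted p under 0.05 in limma. Their median log2 fold change was -0.08, with 6 above 0 and 11 below.

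Of 59 other p53 targets, 49 were tested and 1 was called by limma, lower, where 1.48% of all genes were called lower. ASCC3, a DNA helicase of alkylation repair and ribosome quality control, had 18.6, 14.9 and 17.5 TPM with the scrambled ASO and 6.66, 7.23 and 7.71 TPM in MYH7B ASO replicates 2 to 4, with 7.96 TPM in replicate 1. No library of one group reached the range of the other. ASCC3 fell by 1.13 on the log2 scale (standard error 0.16; limma, adjusted p = 0.0162). Of the 6 fits that left out 1 library each, the one without scrambled ASO replicate 2 called it, and in the others the adjusted p from limma was 0.0580 to 0.0682. The authors' deposited table called 2 of 50, against 8.71% of all genes, namely ASCC3 and CYFIP2, a regulator of actin assembly that fell by 0.45 there. CYFIP2 had means of 50.1 ± 5.52 and 34.0 ± 4.40 TPM (SD, n = 3 each; limma, adjusted p = 0.148). The median of the 49 was -0.11, with 17 above 0 and 32 below, while 7221 of all genes tested lay above 0 and 8767 below.

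The 20 cell cycle genes that p53 lowers through p21 and the DREAM repressor complex had a median log2 fold change of -0.15, with 13 of 20 below 0 and none called by limma. Of all 15988 genes tested, 8767 lay below 0, and the median was -0.044. The spindle checkpoint kinase gene BUB1B was lower in the authors' deposited table (-0.81, adjusted p-value of 0.0140). It was the 1 of the 20 called there, where 5.69% of all genes were called lower. Its means were 10.1 ± 4.37 TPM in the control libraries and 4.09 ± 1.02 TPM in MYH7B ASO replicates 2 to 4 (SD, n = 3 each; limma, adjusted p = 0.177). MYH7B ASO replicate 1 had 9.16 TPM, above the 5.29 TPM of scrambled ASO replicate 3. With replicate 1 included the estimate was -0.81 (limma, adjusted p = 0.390).

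Estimates below 0 came mostly from longer genes of the pathway. Gene span was examined after the values were seen, with a division at the median span of the members, 23.2 kb. Of the 15 shorter genes, 12 had estimates above 0, and their median log2 fold change was 0.32. Of the 15 longer genes, 6 lay above 0 and the median was -0.17. Span was 3.28 kb for GADD45A, 4.11 kb for BTG2 and 10.9 kb for CDKN1A, and 34.6 kb for RRM2B, 39.5 kb for POLH and 55.1 kb for ZMAT3. FDXR, BAX and PLK2 were short genes below 0, and PPM1D, at 66.1 kb, was a long gene above 0. Over all genes tested the median was 0.07 below 23.2 kb, where 42% of genes lay below 0 against 3 of the 15 members. Above 23.2 kb it was -0.14, and 65.7% of genes lay below 0 against 9 of the 15 members. Across genes, Spearman's rho between span and log2 fold change was -0.37 over the 30 members and -0.31 over 15852 tested genes. These are descriptions over genes measured in the same libraries, and the difference between members and other genes was not tested.

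**Figure D4:**
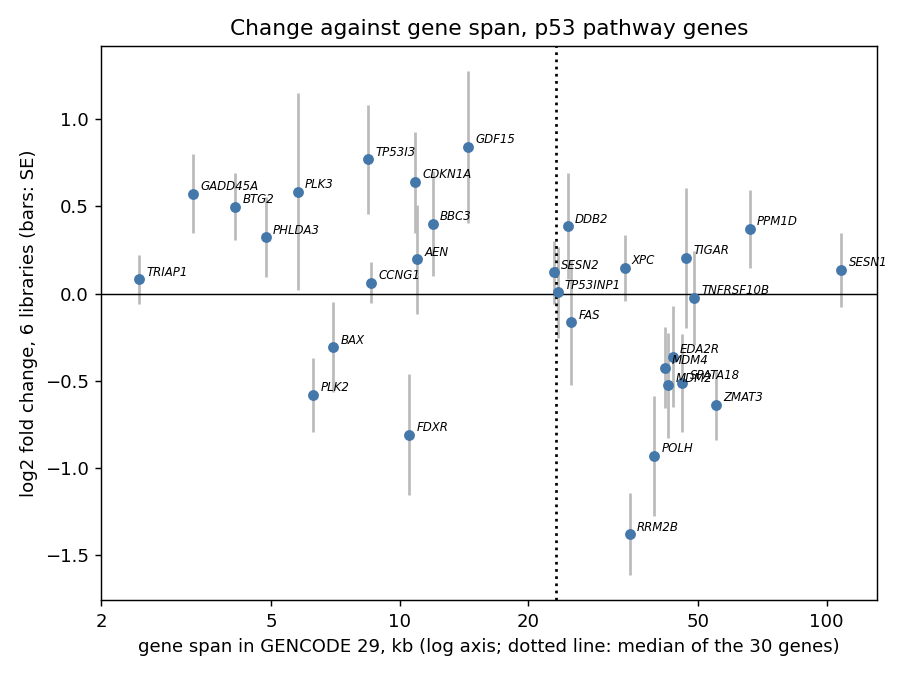
Log2 fold change over the 6 libraries, with standard errors, against gene span in GENCODE 29 on a log axis for the 30 p53 pathway genes. Of the 15 genes left of the dotted median line 12 lie above 0, and of the 15 to its right 6 do.

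Exons of 9 of the 30 genes overlap those of another annotated gene, on the same strand for MDM2, PHLDA3 and TIGAR and on the opposite strand for 7, and the values of these 9 genes are therefore uncertain to that extent. RRM2B, BTG2, GADD45A, POLH and ZMAT3 are not among them.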

How the data were processed

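Per the file headers and the labels, the authors deposited TPM per gene and library. Their comparison table was deposited with the mean normalized count, a signal, of each gene. It further gives, per the file headers, shrunken log2 fold changes and standard errors, a score from the test, and the p-value before and after adjustment. The submitters' processing notes name DESeq2 and GRCh38.p13. The quantifier, annotation release and strand setting are not given in the sources used here.

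The 58721 values of MYH7B ASO replicate 1 were assigned to the sorted gene identifiers of GENCODE 29, which raised its median correlation with the other libraries from 0.408 to 0.955. It was kept out of the 6-library fit, since the order is inferred and its annotation release may differ. Genes averaging 1 TPM or more were fitted with limma 3.58.1 in R 4.3.3 (lmFit, eBayes with trend, no covariate) on log2(TPM + 1), with Benjamini-Hochberg adjustment over all 15988 genes. Called means an adjusted p under 0.05. Fold changes on this scale understate those of low genes. The fit was run on simulated data with known changes. The simulated noise was independent between genes, so it cannot give the rate of false calls where libraries shift many genes together. Comparisons of 3 libraries with 3 cannot go below an exact p of 0.1, so none is given. Python 3.11.15, pandas 2.3.3 and scipy 1.17.1 were used for summaries.

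Groups came from the treatment labels. Every library is named by its title number. The members and lists were chosen with earlier results of these data known. Values in every library are given for members called by limma or in the authors' deposited table, for CDKN1A and MDM2, and for the 2 others with the largest estimates. BAX, DDB2 and TP53I3 were given so, and BBC3 and XPC singled out, after their values were seen. Alternatives were all 7 libraries, other pseudocounts, filters, scalings and variance settings, replicate blocks, and leaving out each library. No per-sample column was left unused. A gene that the naming rule also covers is not reported here.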

Additional observations from a re-analysis of the deposited data

Results flagged for a closer look

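Among the 4 MYH7B ASO libraries, 36 genes were examined for 1 library far from the other 3, and 3 had one. Chance gives about 1 in 20 per gene. The genes share the same libraries, and the share over all genes was not examined. In each case the far library was MYH7B ASO replicate 1, and it was high. That library was the highest of the 4 for 35.8% of all genes tested. BAX had 164.8 TPM there against 36.4 to 56.6 TPM in the others. BBC3 had 18.5 TPM against 5.82 to 7.86 TPM in the others and 2.85 to 7.39 TPM with the scrambled ASO. XPC had 17.5 TPM against 8.46 to 9.73 TPM in the others and 6.42 to 9.28 TPM with the scrambled ASO. The same library had 17.2% of its TPM in mitochondrially encoded genes, against 31.2% to 33.6% in the other 3. The part of that difference in these values was not tested.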

How the results depend on the processing

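The count of 1 called member (RRM2B) was unchanged with all 7 libraries, pseudocounts of 0.1 and 5, a minimum mean of 5 TPM, median-ratio or quantile scaling and removal of mitochondrially encoded genes. It was 0 with no filter on low values, with no variance trend and under each replicate block (title numbers, description numbers, title numbers over 7 libraries). It ranged from 0 to 1 when each library was left out. The count of 1 other p53 target (ASCC3) was 0 with no filter and under the 3 blocks, and 0 to 1 when each library was left out. Over all genes the 265 calls became 40 with no filter, 150 with no trend, 170 with all 7 libraries, 0 under each block (1718, 1096 and 1773 genes at an unadjusted p under 0.05 in limma) and 53 to 149 when each library was left out. The member median of 0.10 moved by less than the spread between libraries in every alternative. It ranged from -0.038 to 0.14 when each library was left out, and was 0.20 with all 7 libraries, 0.21 with quantile scaling, 0.15 with median-ratio scaling, 0.17 under the title block and 0.34 under the 7-library title block. MYH7B was not called with all 7 libraries (-2.30; limma, adjusted p = 0.0525), with no filter (-1.85; 0.0779), or under the title block (-1.92), the description block (-2.17) and the 7-library title block (-2.41). When each library was left out it ranged from -2.04 to -1.66, and was not called without MYH7B ASO replicate 4. RRM2 turned negative under the title block (-0.089) and the description block (-0.27), and ranged from -0.32 to 0.36 when each library was left out. The labels give same-numbered libraries only a number in common, and do not say whether they shared a culture or batch. Deviations of same-numbered libraries correlated at 0.076 and 0.11 by title and -0.073 and -0.039 by description. Pairs with unlike title numbers ran from -0.073 to 0.041. The blocks leave 2 pairs, or 3 with 7 libraries. TPM hides depth, so what depth limits cannot be given.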

Other observations

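Among MYH7B ASO replicates 2 to 4, replicate 3 was the highest library for 19 of the 30 p53 pathway genes, or 63.3%, including CDKN1A and GDF15. It was also the highest of the 3 for 19 of the 20 cell cycle genes that p53 is known to lower, or 95%, against 37.4% of all genes tested. PLK1 had 22.6 TPM in replicate 3 against 11.6 and 13.9 TPM in replicates 2 and 4, and CCNB1, the mitotic cyclin B1 gene, had 32.8 TPM against 21.2 and 28.5 TPM. CDKN1A in the same libraries had 186 TPM against 115 and 103 TPM. Other libraries with high CDKN1A were less often the highest of their group for these 20 genes. MYH7B ASO replicate 1, with 306 TPM of CDKN1A, had 11.5 TPM of PLK1, under replicates 2 to 4. Its 28.9 TPM of CCNB1 lay under replicate 3 and above replicates 2 and 4. Replicate 1 was the highest of the 4 MYH7B ASO libraries for 9 of the 20 cell cycle genes, or 45%, against 35.8% of all genes tested. Scrambled ASO replicate 3, with the most CDKN1A of its group, was the highest of that group for 3 of the 20 cell cycle genes, or 15%, against 45.5% of all genes tested.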
